A study of Mus musculus with 2 samples.

Results

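The Notch pathway genes described here are 31 genes chosen by name for their role in Notch signalling, out of 32285 genes measured. They comprise 4 receptors, 6 ligands, 3 Fringe glycosyltransferases, 9 target genes, 4 genes of the nuclear transcription complex and 5 genes of receptor processing and trafficking. They were read by droplet 3′ single-cell RNA sequencing in 2 libraries from dissociated whole mouse embryos collected on embryonic day 9.5. The embryos of 1 library were wild-type, and those of the other (Usb1-null) were homozygous for a germline CRISPR/Cas9 deletion of early exons of Usb1, obtained by crossing heterozygotes. Usb1 encodes an exonuclease that matures U6 small nuclear RNA. The labels name no other allele or treatment, and the sources used here give neither the number nor the sex of the embryos per library.

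Notch signalling passes between touching cells. A ligand of the Delta or Jagged family on one cell pulls on a Notch receptor on its neighbour, ADAM10 and then gamma-secretase cut the receptor, and the freed intracellular domain joins RBPJ and a Mastermind protein on DNA to switch on Hes and Hey repressors. In the embryo the pathway holds neural progenitors back from differentiation, sets the rhythm and borders of somites, and separates arteries from veins.

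Each library is a single sample, so the genotypes cannot be tested against each other. Unique molecular identifiers (UMIs, 1 per captured transcript) were summed over cells and given per 1000000 UMIs of the library or class (CPM). Ratios are Usb1-null over wild-type CPM, and the 95% interval in brackets covers counting error only, not variation between embryos or preparations. The wild-type library held 15161 cells with a median of 1243 UMIs, and the Usb1-null library 13018 cells with a median of 2299.5, a 1.85-fold difference in depth. Values were therefore recomputed after cells were thinned to 685 UMIs, which 13652 wild-type and 12817 Usb1-null cells reached. The shallower cells left out were unequal in number, 1509 wild-type and 201 Usb1-null, and of 586 and 183 primitive erythroid-like cells 408 and 179 remained. Xist stood at 2451 CPM in the wild-type and 0.779 CPM in the Usb1-null library, and Y-linked Uty at 0.138 and 353 CPM, so genotype and sex cannot be told apart, and neither can genotype and any difference in stage within the day. Usb1 itself gave 68 UMIs (3.13 CPM) and 47 UMIs (1.41 CPM), a ratio of 0.450 (0.303 to 0.662). These 3′ counts per gene do not show whether reads came from the deleted exons, so they do not check the label. A total of 61 barcodes were shared by both libraries, 0.402% of the wild-type and 0.469% of the Usb1-null cells.

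Direct Notch targets are recognised by RBPJ, whose core binding letters are TGGGAA. RefSeq promoters (250 bases before to 50 after the start of transcription, GRCm38.p6) were found for 26 of the 31 genes, with 34 promoters in all, and not for Hes1, Hes3, Hey1, Heyl and Mfng. The 6 letters were searched on both strands, the reverse strand reading TTCCCA, and occurred in 9 of these 34 promoters and in 25.6% of all 32851 promoters. They are shown for Hes5, Hes7 and Hey2, the Hes and Hey targets in which they occurred, with the matches in capitals.
Hes5 (chr4:154960673-154960972, plus strand): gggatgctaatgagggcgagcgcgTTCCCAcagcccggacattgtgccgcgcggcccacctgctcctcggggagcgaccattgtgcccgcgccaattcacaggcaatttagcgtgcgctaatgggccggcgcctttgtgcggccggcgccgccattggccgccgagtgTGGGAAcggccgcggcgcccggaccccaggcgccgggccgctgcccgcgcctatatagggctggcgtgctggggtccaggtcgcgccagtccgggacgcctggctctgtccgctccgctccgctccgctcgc
Hes7 (chr11:69120203-69120502, plus strand): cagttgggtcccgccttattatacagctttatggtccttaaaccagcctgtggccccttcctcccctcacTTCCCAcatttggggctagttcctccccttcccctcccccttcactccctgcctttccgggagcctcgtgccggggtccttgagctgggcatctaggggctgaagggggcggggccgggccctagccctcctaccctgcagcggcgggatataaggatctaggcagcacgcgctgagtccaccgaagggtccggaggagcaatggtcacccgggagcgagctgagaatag
Hey2 (chr10:30842734-30843033, minus strand): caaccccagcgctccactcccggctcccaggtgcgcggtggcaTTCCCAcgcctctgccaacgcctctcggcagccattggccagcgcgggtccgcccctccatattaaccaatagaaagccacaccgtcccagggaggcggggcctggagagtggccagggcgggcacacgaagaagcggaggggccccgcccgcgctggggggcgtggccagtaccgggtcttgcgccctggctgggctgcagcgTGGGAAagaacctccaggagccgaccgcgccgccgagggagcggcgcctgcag
Hes5 held a match on each strand, starting 82 bases before the start site on the sense strand and 226 bases before it on the antisense strand. Hes7 held 1, on the antisense strand 180 bases before the start site, and Hey2 held 1 on each strand. Psen2, Maml2, Maml3, Rbpj and Lfng also held the letters, while Notch1, Dll1, Dll3, Dll4, Jag1, Hes6 and Nrarp did not within this window. A match of 6 letters is a description of sequence and not a binding site, and its share among the members lay near that of all promoters.

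Over whole libraries the pathway moved little between genotypes. Every one of the 31 genes reached 50 UMIs over both libraries. Hes7 and Dlk2 exceeded the wild-type level by 1.5-fold or more in the Usb1-null library (6.45% of the members, against 9.20% of the 16752 genes with at least 50 UMIs), and Heyl lay 1.5-fold or more below it (3.23%, against 5.90%). The counting interval lay above 1 for 10 members, or 32.3%, and for 27.1% of all these genes. It lay below 1 for 8 members, or 25.8%, and for 28.5% of all genes. The median log2 ratio, with 1 CPM added, was 0.02 over the members and 0.00 over all genes. It was 0.00 after the Usb1-null cell classes were weighted to their wild-type shares. All of these shares were close to those of genes at large.

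**Figure D1:**
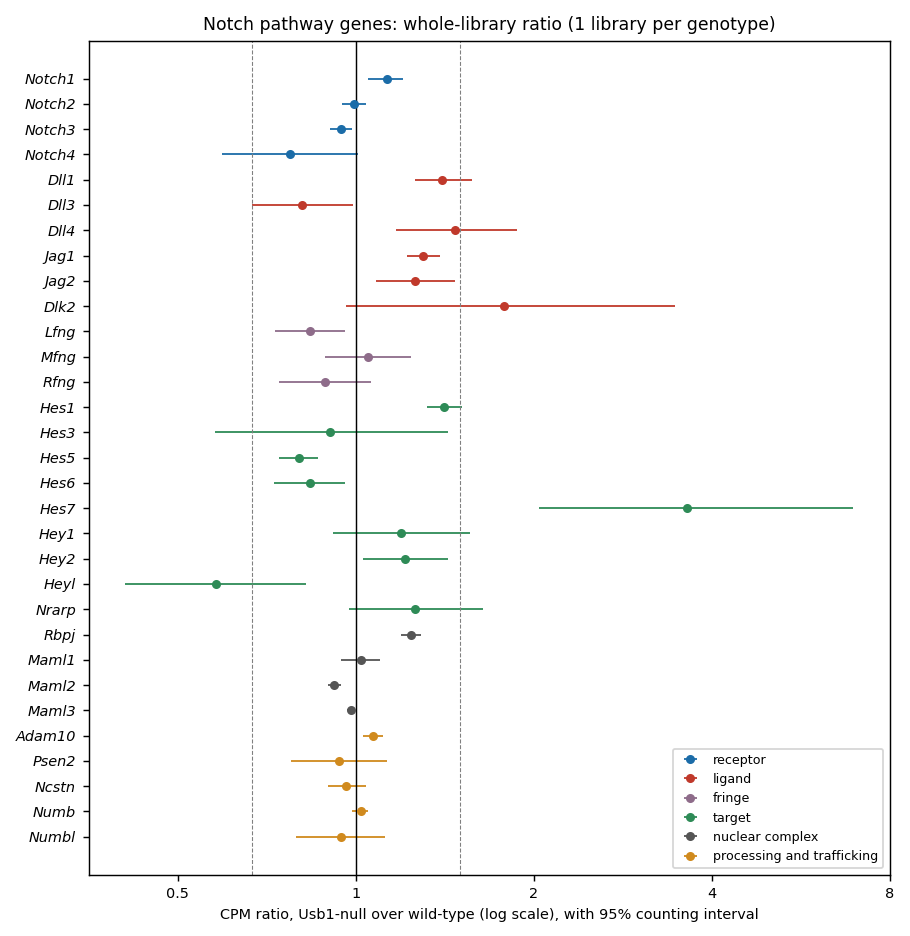
Points give the whole-library CPM ratio (Usb1-null over wild-type, log scale) of each of the 31 genes, coloured by role, and bars the 95% counting interval of 1 library per genotype. Dashed lines mark 1.5-fold, which only Hes7, Dlk2 and Heyl passed.

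Cells were grouped without using the 31 genes. Of the classes, 21 held at least 100 cells in each library and 16 of them could be named from marker lists. A name carries the suffix -like, since it rests on markers. In 22 of the 31 members (71.0%) the class with the highest CPM was the same in both libraries, against 42.6% of all 16752 genes with at least 50 UMIs, which differ from the members in depth. Some leads rest on few UMIs, such as 3 and 2 for Dlk2 and 5 and 14 for Hes3.

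**Figure D2:**
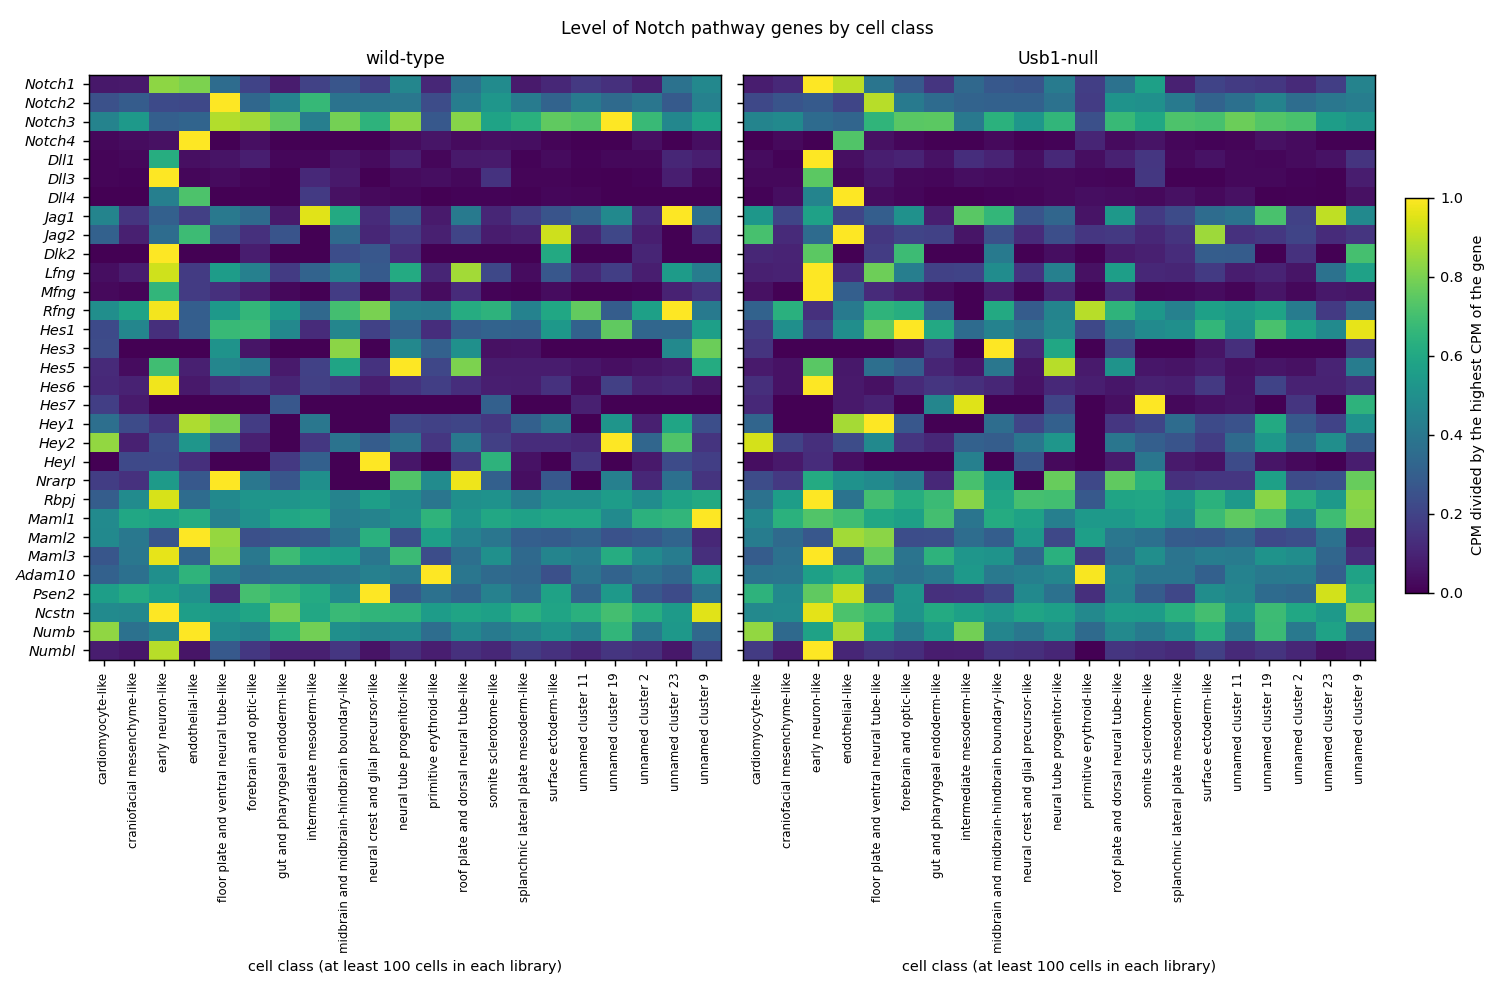
Rows are the 31 genes and columns the 21 cell classes of each library, and colour is the CPM divided by the highest CPM of that gene in either library, so classes can be compared within a gene but not genes with each other. Early neuron-like cells hold the highest value of 11 genes and endothelial-like cells of 4 in both panels, while rows of few UMIs, such as Hes7 and Dlk2, carry wide counting error.

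Among the receptors, Notch4 was restricted, and Notch2 and Notch3 were broad. Notch1 was detected in all 21 classes of both libraries, at levels that varied widely. Notch1, the main receptor of neural progenitors, somites and vessels, was highest in early neuron-like cells at 180.0 CPM in the wild-type and 217 CPM in the Usb1-null library, followed by endothelial-like cells at 174 and 195 CPM. In a finer clustering Notch1 was highest in the wild-type in the unnamed Hes7-rich cluster described with Hes7, at 504 CPM, with 408 CPM in the Usb1-null library. Its lowest class was cardiomyocyte-like in both, at 13.6 and 17.3 CPM. Notch4, a receptor of endothelium, led in endothelial-like cells at 51.8 and 37.8 CPM, and these held 71.7% and 71.4% of its UMIs. Notch2 led in floor plate and ventral neural tube-like cells at 322 and 287 CPM. Notch3 had no shared leading class, and ranged from 67.5 to 246 CPM over the wild-type classes.

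Between genotypes 3 of the 4 receptors stayed close to a ratio of 1. Whole-library Notch1 was 63.0 CPM in the wild-type and 71.0 CPM in the Usb1-null library, a ratio of 1.13 (1.05 to 1.20). Notch2 stood at 124 and 123 CPM, a ratio of 0.993 (0.946 to 1.04), and Notch3 at 161 and 152 CPM, a ratio of 0.945 (0.905 to 0.986). Notch4 stood at 4.88 and 3.77 CPM, with an interval that included 1 (0.593 to 1.01). Within classes, Notch1 in surface ectoderm-like cells was 1.79-fold (1.21 to 2.72) higher, with 36 and 89 UMIs. Notch2 in intermediate mesoderm-like cells was 0.475 of the wild-type level (0.288 to 0.781), with 35 UMIs in each library, and 0.876 after thinning.

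Of the 6 ligands, Dll1, Dll4, Jag1 and Jag2 had an interval above 1 and Dll3 had one below, where 27.1% and 28.5% of all genes did. After thinning the intervals of Dll4 (0.966 to 2.17) and Dll3 (0.531 to 1.08) included 1. Dll3 stood at 0.949 (0.752 to 1.20) with a minimum of 1000 genes per cell. The thinned interval of Dlk2, on 5 and 14 UMIs, lay above 1 (1.02 to 10.6). The median log2 ratio of the 6 ligands was 0.39, and the group was not tested against genes at large. Dll1 (chr17:15367354-15376872, minus strand, GRCm38), the Delta ligand of nascent neurons and unsegmented mesoderm, stood at 22.1 CPM (480 UMIs) in the wild-type and 31 CPM (1034 UMIs) in the Usb1-null library, a ratio of 1.40 (1.26 to 1.57). Dll4, the arterial Delta ligand, stood at 4.92 CPM (107 UMIs) and 7.25 CPM (242 UMIs), a ratio of 1.47 (1.17 to 1.87). These were the largest ratios among ligands with over 50 UMIs in each library. Jag1 stood at 66.2 and 86.2 CPM, a ratio of 1.30 (1.22 to 1.39), and Jag2 at 11.9 and 15 CPM, a ratio of 1.26 (1.08 to 1.47). Dll3, a divergent ligand that blocks signalling within its own cell, was lower, at 8.60 and 6.98 CPM with a ratio of 0.811 (0.666 to 0.989). Dlk2, a non-canonical ligand, had 15 and 41 UMIs and an interval that included 1 (0.964 to 3.46).

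Dll1 and Dll3 shared early neuron-like cells as their leading class in the main grouping. In the finer clustering both were highest in the wild-type in that Hes7-rich cluster, Dll1 at 264 CPM with 365 CPM in the Usb1-null library, and Dll3 at 240.1 CPM with 165 CPM. Dll1 in early neuron-like cells was 236 CPM (193 to 286) in the wild-type and 379 CPM (321 to 445) in the Usb1-null library, a ratio of 1.6 (1.24 to 2.08), 1.78 after thinning and 1.39 (1.03 to 1.88) with a minimum of 1000 genes per cell. Thinned cells with a Dll1 UMI made up 14.5% of wild-type and 24.8% of Usb1-null early neuron-like cells, against 0.735% and 1.68% of primitive erythroid-like cells, which should lack Dll1. Without thinning the shares were 21.8% and 46.6% of early neuron-like cells at median depths of 1187 and 2267 UMIs, and 0.683% and 2.73% of erythroid-like cells at 833 and 1708 UMIs. Dll3 in early neuron-like cells was 162 and 121 CPM, a ratio of 0.748 (0.508 to 1.09) whose interval included 1. Early neuron-like cells were 2.18% of wild-type and 1.24% of Usb1-null cells. With Usb1-null classes weighted to wild-type shares the log2 ratio of Dll1 went from 0.47 to 0.61 and that of Dll3 from -0.27 to -0.07.

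Dll1 exceeded 1 in 9 of the 9 classes with at least 50 UMIs, with ratios from 1.04 to 2.15, and the interval lay above 1 in 3 of them. The remaining class of those 3 beside early neuron-like and somite sclerotome-like cells was the neural tube progenitor-like class, at 31.9 and 43.9 CPM with a ratio of 1.38 (1.05 to 1.82).

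Jag1, the Jagged ligand of many epithelial and boundary tissues, was highest in unnamed cluster 23, led by BC006965, Luzp2 and Lmx1a, at 251 CPM in the wild-type and 227 CPM in the Usb1-null library. Intermediate mesoderm-like cells came next at 240.1 and 187 CPM. In both of these classes the interval of the ratio included 1. The ratio was 2.11 (1.22 to 3.86) in neural crest and glial precursor-like cells, 1.88 (1.21 to 2.97) in early neuron-like cells and 1.55 (1.15 to 2.11) in somite sclerotome-like cells. Over 19 classes with at least 50 UMIs, 16 ratios exceeded 1, 8 intervals lay above 1 and 0 below.

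Dll4 and Jag2 were both high in endothelial-like cells. These held 72.0% of wild-type and 71.5% of Usb1-null Dll4 UMIs, at 52.5 CPM (41.4 to 65.6) and 72.7 CPM (62.3 to 84.4), a ratio of 1.39 (1.05 to 1.84). Early neuron-like cells came next at 31.5 and 32.8 CPM. Thinned endothelial-like cells with a Dll4 UMI also held Efnb2, the arterial ephrin, in 55.9% of wild-type cells (19 of 34) and 37.0% of Usb1-null cells (17 of 46), against 19.0% and 16.4% of those without Dll4. Without thinning the shares were 65.3% and 69.6% with Dll4 and 32.0% and 40.3% without. Cells with Dll4 held the arterial transcript more often in both libraries, as a description of cells that share a library. Jag2 was 34.8 and 50.9 CPM there, a ratio of 1.46 (1.05 to 2.07), and 47.0 and 43.5 CPM in surface ectoderm-like cells. In cardiomyocyte-like cells Jag2 had 14 and 50 UMIs, a ratio of 2.28 (1.24 to 4.46), and 1.99 (0.738 to 5.89) after thinning on 7 and 13 UMIs.

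Fringe enzymes add sugars to Notch receptors and shift their preference between Delta and Jagged ligands. Lfng stood at 17.7 CPM in the wild-type and 14.8 CPM in the Usb1-null library, a ratio of 0.836 (0.730 to 0.958). This ratio was 0.818 (0.651 to 1.03) after thinning, with an interval that included 1. Mfng stood at 10.7 and 11.2 CPM and Rfng at 10.1 and 8.93 CPM, both with intervals that included 1. Early neuron-like cells led for Lfng and Mfng in both libraries. Lfng was 0.652 of the wild-type level (0.454 to 0.938) in roof plate and dorsal neural tube-like cells, on 62 and 66 UMIs, 0.624 (0.333 to 1.14) after thinning and 0.724 with a minimum of 1000 genes. Mfng in endothelial-like cells was 25.2 and 43.7 CPM, a ratio of 1.73 (1.18 to 2.60). In early neuron-like cells Mfng was 94.5 and 144 CPM, a ratio of 1.52 (1.00 to 2.33), but 0.959 after thinning, with 25 and 13 UMIs.

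The 9 targets were divided in direction. Of their intervals 3 lay above 1 (Hes1, Hes7 and Hey2) and 3 below (Hes5, Hes6 and Heyl), shares near the 27.1% and 28.5% of all genes. After thinning only those of Hes1 and Hes5 still excluded 1, and the Hes5 ratio went to 1.01 with a minimum of 1000 genes per cell. Hes1 and Hes5 are the principal Hes repressors of neural progenitors.

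Hes1 (chr16:30064384-30067796, plus strand) stood at 56.5 CPM (1228 UMIs) in the wild-type and 79.6 CPM (2659 UMIs) in the Usb1-null library, a ratio of 1.41 (1.32 to 1.51), and 1.45 (1.30 to 1.63) after thinning. It was broad, and led in unnamed cluster 19 in the wild-type (113 CPM) and in forebrain and optic-like cells in the Usb1-null library (149.7 CPM). The interval lay above 1 in 9 and below 1 in 0 of the 17 classes with at least 50 UMIs. Of these classes 14 had a ratio over 1, and the exceptions were cardiomyocyte-like cells (0.808), unnamed cluster 19 (0.942) and midbrain and midbrain-hindbrain boundary-like cells (0.965), whose intervals all included 1. The ratio was 1.92 (1.08 to 3.60) in neural crest and glial precursor-like, 1.64 (1.23 to 2.22) in endothelial-like, 1.6 (1.26 to 2.04) in splanchnic lateral plate mesoderm-like and 1.45 (1.16 to 1.81) in neural tube progenitor-like cells. The Hes1 difference was thus spread over neural, mesodermal and endothelial classes.

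Hes5 was highest in neural classes. Neural tube progenitor-like cells held 37.2% of its wild-type and 44.2% of its Usb1-null UMIs, at 189 CPM (172 to 207) and 169 CPM (157 to 183), a ratio of 0.896 (0.795 to 1.01). Primitive erythroid-like cells, which should lack Hes5, read 40.5 CPM (27 UMIs) in the wild-type and 13.5 CPM (5 UMIs) in the Usb1-null library, and the part of such background in the genotype ratios was not tested. Whole-library Hes5 stood at 57.2 CPM (1242 UMIs) and 45.7 CPM (1526 UMIs), a ratio of 0.800 (0.742 to 0.863). This ratio was 0.795 (0.704 to 0.898) after thinning but 1.01 (0.919 to 1.11) when only cells with at least 1000 genes were kept. The lowest ratio in a class with at least 50 UMIs was 0.642 (0.523 to 0.788), in roof plate and dorsal neural tube-like cells, where Hes5 was 152 and 97.3 CPM. It was 0.708 (0.509 to 0.979) after thinning and 0.796 (0.626 to 1.02) with a minimum of 1000 genes, neither past 1.5-fold. It was 0.735 (0.576 to 0.937) in forebrain and optic-like and 0.676 (0.495 to 0.929) in midbrain and midbrain-hindbrain boundary-like cells. In early neuron-like cells Hes5 was 131 and 141 CPM, a ratio of 1.08 with an interval that included 1.

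**Figure D3:**
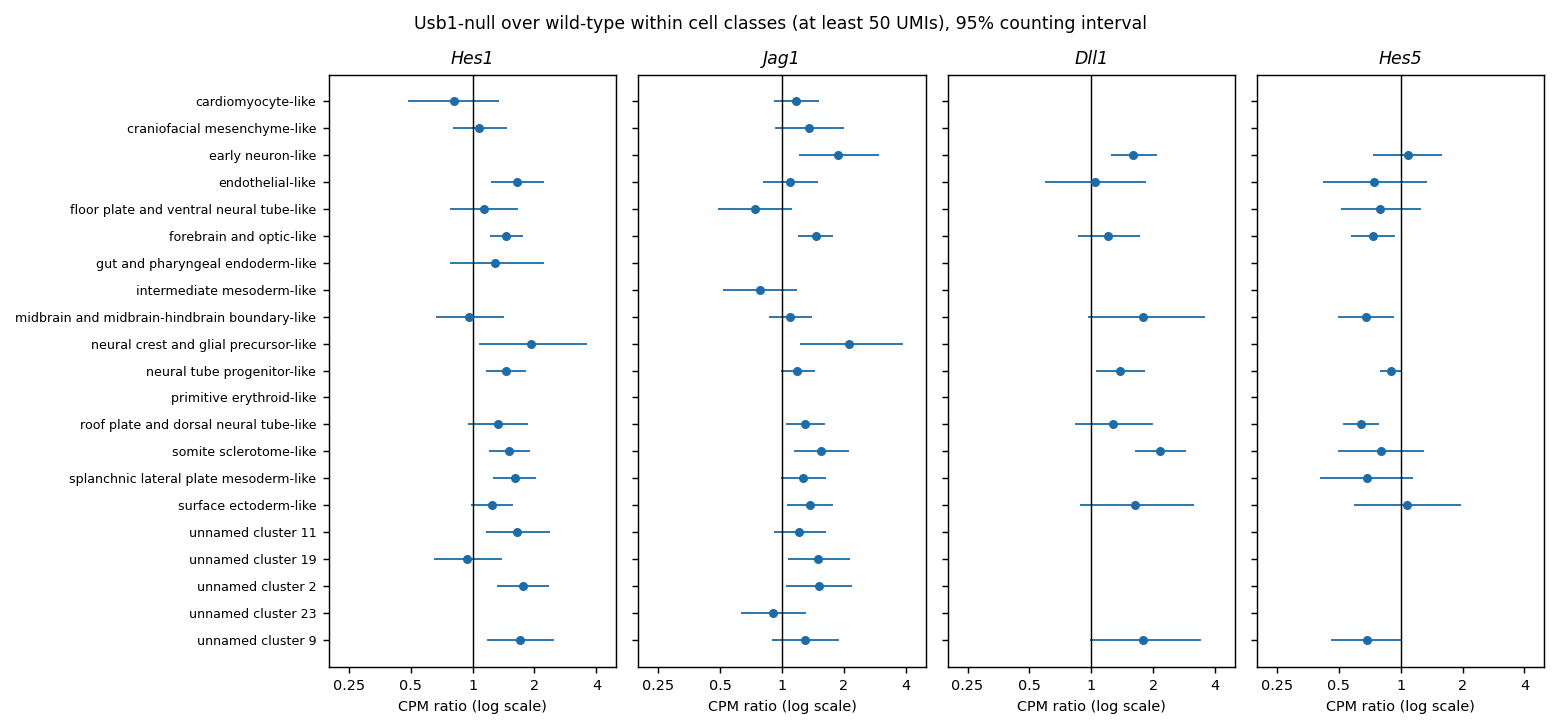
Panels give the CPM ratio (Usb1-null over wild-type, log scale) of Hes1, Jag1, Dll1 and Hes5 within each cell class that held at least 50 UMIs of the gene, with 95% counting intervals. Hes1, Jag1 and Dll1 lie mostly to the right of 1 and Hes5 mostly to the left, with its lowest ratio, 0.642, in roof plate and dorsal neural tube-like cells.

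Whether ligand and target shared cells was read in thinned neural progenitor classes. Hes5 was found in 11.6% of wild-type cells with a Dll1 UMI (10 of 86, interval 5.72% to 20.3%) and in 9.10% of those without. In the Usb1-null library the shares were 11.3% (13 of 115, interval 6.16% to 18.6%) and 7.45%. The share without Dll1 lay within the interval of the share with it in both libraries, so no difference was detectable at the thinned depth. Without thinning, Hes5 was found in 21.2% (15.2% to 28.2%) of wild-type cells with Dll1 and 15% without, and in 28.6% (23.9% to 33.7%) and 18.7% of Usb1-null cells, in cells of unequal depth. A lower share of Hes5 in cells with Dll1 was not seen in either reading. Some of these cells may hold only background. Thinned primitive erythroid-like cells held Dll1 in 0.735% of wild-type and 1.68% of Usb1-null cells, and Hes5 in 2.70% and 1.12%. The part of background in these shares was not tested.

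Hes6 counteracts Hes1 in differentiating cells, and Hes3 is a repressor of the midbrain-hindbrain boundary. Hes6 led in early neuron-like cells at 126 CPM in the wild-type and 129 CPM in the Usb1-null library. Its whole-library ratio was 0.835 (0.727 to 0.960), and 1.01 after thinning. Hes3 led in midbrain and midbrain-hindbrain boundary-like cells at 7.99 and 9.67 CPM, but these held only 5 of its 36 wild-type and 14 of its 50 Usb1-null UMIs. Neural tube progenitor-like cells held 11 and 23.

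Hey1, Hey2 and Heyl act in heart, vessels and somites. Over the libraries Hey2 had 228 and 425 UMIs, a ratio of 1.21 (1.03 to 1.43), and 1.13 (0.852 to 1.49) after thinning. Of the 4 classes with at least 50 Hey2 UMIs, 3 had a ratio over 1, with intervals that included 1. Hey2 in cardiomyocyte-like cells was 31.7 CPM in the wild-type and 35.4 CPM in the Usb1-null library, with an interval that included 1. In endothelial-like cells Hey2 was 19.8 and 8.83 CPM, a ratio of 0.447 (0.242 to 0.811), and 0.726 after thinning on 10 and 7 UMIs. The class pools 3 clusters. In cluster 6, led by Emcn, Cldn5 and Flt1, Hey2 had 26 and 9 UMIs, a ratio of 0.210 (0.0866 to 0.462). In cluster 25, led by Adgrg6, Trpm3 and Nfatc1, it had 2 and 9 UMIs (interval 0.696 to 32.0), and in cluster 30, of 11 and 19 cells, 1 and 3 UMIs (0.120 to 78.5). Dll4 in cluster 6 had 65 and 156 UMIs, a ratio of 1.46 (1.08 to 1.98). Of the other targets there, Hes1 had 53 and 135 UMIs, a ratio of 1.55 (1.12 to 2.17), and the ratios of Nrarp (1.70) and Hey1 (1.09) had intervals that included 1. Heyl there had 3 and 2 UMIs, a ratio of 0.404 (0.0338 to 3.53). Heyl stood at 3.31 CPM (72 UMIs) and 1.92 CPM (64 UMIs) over the libraries, a ratio of 0.579 (0.407 to 0.822), and 0.859 (0.486 to 1.5) after thinning. Hey1 and Nrarp, a feedback inhibitor of the nuclear complex, had 89 and 163 UMIs and 91 and 176 UMIs, with ratios of 1.19 and 1.26 and intervals that included 1.

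Hes7 (chr11:69120404-69124055, plus strand), the oscillating repressor of the segmentation clock, had the largest whole-library ratio before thinning. It had 14 UMIs (0.644 CPM) in the wild-type and 78 UMIs (2.34 CPM) in the Usb1-null library, a ratio of 3.63 (2.04 to 6.94). It was found in 13 of 15161 and 62 of 13018 cells. After thinning Hes7 had 7 and 15 UMIs, a ratio of 2.28 (0.876 to 6.62) whose interval included 1. Dlk2, on 5 and 14 thinned UMIs, then had a larger ratio, 2.98 (1.02 to 10.6). Somite sclerotome-like cells held 64.3% of the wild-type and 53.8% of the Usb1-null UMIs of Hes7. These were 9 and 42 UMIs, a ratio of 3.26 (1.57 to 7.63), and 1.5 (0.457 to 5.25) after thinning on 6 and 8 UMIs. Neural tube progenitor-like cells, at median depths of 1148 and 2163.5 UMIs, held 0 and 10 Hes7 UMIs. The counting interval of that ratio began at 1.37. In cluster 15 of that class there were 0 and 8, with an interval that began at 0.675. Cluster 15 was 341 of 1862 wild-type and 501 of 1666 Usb1-null cells of the class, or 2.25% and 3.85% of the libraries.

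No class could be named presomitic mesoderm, the tissue where Hes7 oscillates, and Msgn1, 1 of its defining markers, had 0 UMIs in both libraries. Most Hes7 in somite sclerotome-like cells came from cluster 5, with 7 and 39 UMIs. A finer clustering set apart 112 wild-type and 162 Usb1-null cells within cluster 5 that held most Hes7. They were led by Pcdh19, Dll3 and Fgf18 and also held Dll1, Tbx6 and Ripply2. They made up 0.739% of the wild-type library (0.609% to 0.888%) and 1.24% of the Usb1-null library (1.06% to 1.45%). Because they were picked for their Hes7 count, their Hes7 level is a description.

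Dll1 over all somite sclerotome-like cells was 28.1 CPM (67 UMIs) in the wild-type and 60.5 CPM (206 UMIs) in the Usb1-null library, a ratio of 2.15 (1.63 to 2.88), and 2.05 after thinning. Within the finer set it was 264 and 365 CPM, a ratio of 1.39 (0.989 to 1.98). Hes7 there had 6 and 34 UMIs, a ratio of 2.31 (0.959 to 6.73), Dll3 was 240.1 and 165 CPM, a ratio of 0.686 (0.460 to 1.04), and Tbx6 had 9 and 16 UMIs, a ratio of 0.725 (0.302 to 1.86). The ratios of Dll1 and Hes7 were smaller among these cells than over the whole class, and their intervals included 1. These intervals overlapped those of the class, and the difference was not tested. The reading also rested on the clustering. When the 31 genes were not removed beforehand, 7 of them were among the variable genes. The cluster with most Hes7 (134 and 165 cells) then gave a Dll1 ratio of 1.57 (1.13 to 2.22), with an interval above 1. Its Hes7 ratio was 2.65 (1.10 to 7.71), on 6 and 35 UMIs. This cluster too was picked for its Hes7 count, so that ratio is a description and not a check. How far the larger share of the Hes7-rich cells accounts for the class difference was not tested. Lfng, the Fringe of the segmentation clock, had 30 and 22 UMIs in somite sclerotome-like cells, a ratio of 0.513 (0.282 to 0.920). This ratio was 0.376 (0.0883 to 1.24) after thinning, on 12 and 4 UMIs, and 0.609 (0.315 to 1.19) with a minimum of 1000 genes. In cluster 5, the source of most Hes7 in the class, the Lfng ratio was 0.648 (0.333 to 1.26). In cluster 7 of the class Lfng had 9 and 2 UMIs, a ratio of 0.161 (0.0169 to 0.776). In the finer set it had 10 and 12 UMIs, a ratio of 0.489 (0.194 to 1.26).

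**Figure D4:**
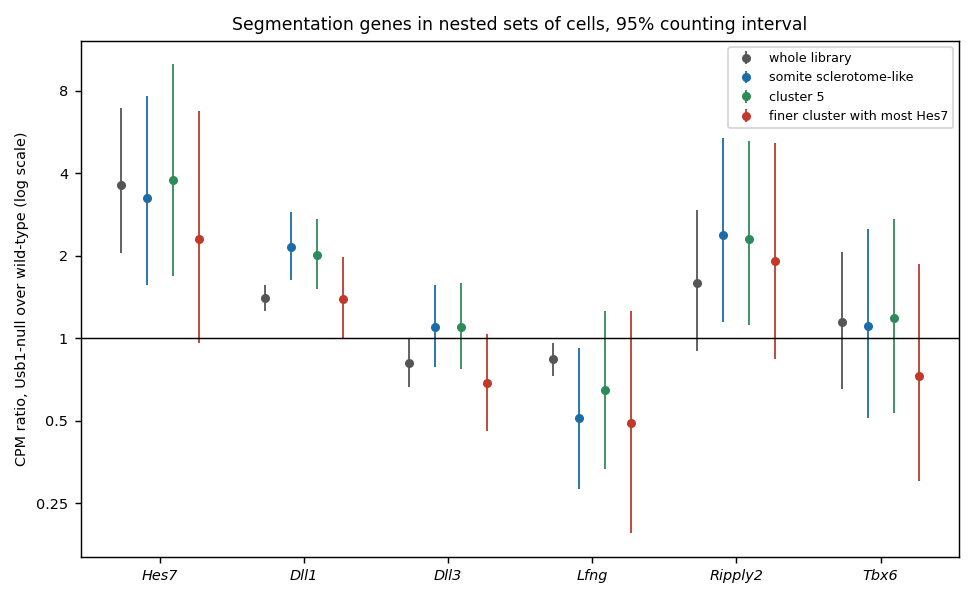
Points give the CPM ratio (Usb1-null over wild-type, log scale) of 6 segmentation genes in the whole library, the somite sclerotome-like class, its cluster 5 and the finer cluster with most Hes7 UMIs, with 95% counting intervals. Dll1 goes from 2.15 in the class to 1.39 in the finer cluster. The Lfng ratio stays below 1 throughout, with an interval that includes 1 in cluster 5 and in the finer cluster.

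In the nuclear complex the largest difference was that of Rbpj, the DNA-binding subunit. It stood at 142 CPM (3078 UMIs) in the wild-type and 175 CPM (5857 UMIs) in the Usb1-null library, a ratio of 1.24 (1.19 to 1.29). Its ratio exceeded 1 in 19 of 21 classes, with 10 intervals above 1 and 0 below, and was 1.43 (1.26 to 1.62) in neural tube progenitor-like cells. The Mastermind coactivators stood at ratios of 1.02 for Maml1, 0.920 (0.897 to 0.945) for Maml2 and 0.982 (0.966 to 0.998) for Maml3. Maml2 led in endothelial-like cells at 1140.3 and 981 CPM, and its interval lay below 1 in 9 of 21 classes.

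Processing and trafficking genes all stayed close to a ratio of 1. Adam10, the protease of the initial cut, stood at 199 and 213 CPM, a ratio of 1.07 (1.03 to 1.11), and led in primitive erythroid-like cells at 492 and 488 CPM. Psen2 and Ncstn, subunits of gamma-secretase, and Numb and Numbl, inhibitors that direct Notch to endocytosis, had ratios between 0.936 and 1.02 with intervals that included 1. Numbl led in early neuron-like cells at 63.0 and 70.7 CPM, and Numb in endothelial-like cells at 556 and 485 CPM.

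Taken over classes, 295 pairs of a member and a class held at least 50 UMIs. Of these 25 were higher by 1.5-fold or more in the Usb1-null library (8.47%, against 6.19% of 152554 pairs of any gene and class) and 6 lower by 1.5-fold or more (2.03%, against 7.85%). Under 5 other groupings of the cells 22 to 31 pairs were higher and 9 to 11 lower, so 6 was the lowest count of lower pairs. With a counting interval that also excluded 1 there were 19 higher (6.44%, against 4.50%) and 5 lower (1.69%, against 6.29%). These 24 pairs came from 11 members, with Hes1 in 7 classes and Jag1 in 5. After thinning 23 of the 24 stayed on the same side of 1, 18 of them past 1.5-fold and 10 with an interval that excluded 1. Pairs of 1 gene share its transcripts and are not independent.

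Other genes of the pathway, listed for their known roles, had a median ratio near 1 as well. Of 40 further Notch pathway genes 37 had at least 50 UMIs, with a median log2 ratio of -0.01. Of these 1 was at least 1.5-fold higher (Dtx3l, a ubiquitin ligase, 1.71, 1.08 to 2.77). In the other direction 1 was at least 1.5-fold lower (Tle5, a member of the Groucho family, 0.640, 0.516 to 0.794). Of all genes 9.20% and 5.90% lay past these limits. A list headed somite segmentation had 7 genes with at least 50 UMIs. Only Ripply3 had an interval above 1 (1.51, 1.10 to 2.11), and its role in somites was not checked here. Ripply2 had a ratio of 1.59 with an interval that included 1 (0.901 to 2.93), and the median log2 ratio of the list was 0.04. Of 6 proneural genes, which switch on Dll1 in nascent neurons, Neurod1 was lower at 0.422 (0.268 to 0.658) and the median was -0.28. The share of early neuron-like cells was also smaller, 2.18% in the wild-type and 1.24% in the Usb1-null library, and its part in these values was not tested. Of 8 arterial genes 0 passed 1.5-fold.

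The genes whose class pattern was most like that of 3 restricted members were found by Pearson's r of log2(CPM + 1) over the 42 sums of a class and a library, which share library and depth. Hes5 was most like Gm27032 (r = 0.92), Rtn3 (0.91) and Rfx4 (0.91). Dll4 was most like Shank3 (0.70), Taok2 (0.70) and Klf7 (0.69). Hes7, with few UMIs, had no close match, and its nearest were Plscr1 (0.58), Rara (0.57) and Cdh18 (0.57).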

How the data were processed

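Dissociated embryos were run on the 10x Genomics Chromium 3′ platform. The authors deposited, per library, UMI counts per gene and barcode with no normalisation. The matrix headers name Cell Ranger 6.1.2, while the submitters' processing notes name 2.1.1. The submitters' notes give mm10 as the build; for the annotation and the use of intronic reads the sources used here give nothing. Nuclear RNA is named in the labels, although the protocol describes whole cells.

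Cells with 200 to 6000 genes and under 30% mitochondrial UMIs were kept, 15161 of 15162 barcodes and 21732106 UMIs in the wild-type and 13018 of 13034 barcodes and 33383886 UMIs in the Usb1-null library. Scrublet called 933 (6.15%) and 569 (4.37%) cells doublets, which were kept. For clustering, 2000 variable genes without the members, 30 principal components corrected for library by a NumPy 2.4.6 version of Harmony, 15 neighbours and Leiden partitioning (leidenalg 0.10.2, resolution 1.0, Scanpy 1.11.5) gave 32 clusters. A cluster was named by the list with most markers raised 2-fold, at least 3 of them, unless its 10 leading genes favoured another list. It also needed a marker among those 10 or at least 50% of its list raised. This naming rule was set after the clusters were seen.

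CPM intervals are exact Poisson, shares Clopper-Pearson and ratios exact conditional binomial (SciPy 1.17.1), all for counting error only. The ratio step was checked on simulated counts. With 1 library per genotype no test was made. Members, lists and tests were chosen with earlier results of these data known. Member and class pairs with at least 50 UMIs, a ratio past 1.5-fold and an interval excluding 1 were named by rule, and other pairs are given for the leading classes or were picked after their values were seen. Alternatives were scaling, cell filters, doublets, thinning, clustering, minimum UMIs and fold. A planned comparison of Dll3 with Hes7 in presomitic cells was not made, since no such class was recovered. Protein sequences of the targets were not analysed here.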

Additional observations from a re-analysis of the deposited data

How the results depend on the processing

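The median log2 ratio of the members lay between 0.00 and 0.03 under each scaling, cell filter, minimum and added CPM tried, and between -0.01 and 0.01 with wild-type class shares. Of the single member ratios recomputed, 146 stayed within the counting interval and 7 left it, Heyl (-0.17), Maml1 (-0.09) and Notch3 (-0.16) in thinned cells and Maml2 (-0.17), Maml3 (-0.09), Mfng (0.32) and Notch1 (0.29) with a minimum of 1000 genes. Only 2 with an interval that excluded 1 changed sign, Hes5 and Hes6. Numbl (-0.08 to 0.13), Maml1 (0.03 to -0.01 and -0.09), Numb (0.02 to -0.01) and Notch2 (-0.01 to 0.02), whose intervals included 1, also crossed 0 with a minimum of 1000 genes or in thinned cells. The count of members with the same leading class was 21 or 22 in all 5 alternative groupings. The wild-type level in the leading class left its counting interval in 13 instances and stayed within it in 142. At resolution 1.6 it went from 180.0 to 504 CPM for Notch1, 162 to 240.1 for Dll3, 12.4 to 35.1 for Nrarp and 3.78 to 35.1 for Hes7. Hes5 went from -0.32 to 0.01 with a minimum of 1000 genes and Hes6 from -0.24 to 0.01 in thinned cells. Mfng in early neuron-like cells went to a ratio of 0.959 in thinned cells, an alternative chosen after seeing the data. Members past 1.5-fold were 2 higher and 1 lower, and 0 and 0 in thinned cells or with a minimum of 200 UMIs, since Hes7 and Dlk2 then held fewer UMIs than the minimum and Heyl stood at 0.859 or did so too, and 8 and 3 where a CPM ratio, with no CPM added, had to pass 0.32 on the log2 scale. Intervals above 1 went from 10 to 5 in thinned cells, which hold fewer UMIs. Intervals below 1 went from 8 to 4 in thinned cells and to 4 with a minimum of 1000 genes. Pairs of a member and a class that were higher went from 25 to 4 at a fold of 2 and to 43 with a minimum of 20 UMIs. Pairs that were lower went from 6 to 2 at a fold of 2 and to 21 with a minimum of 20 UMIs. They were 11 at resolution 1.6. They were 10 at resolution 0.4, with the members not removed before the variable genes were chosen, or with doublets removed. The cause was not tested.

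No paired analysis was possible because each genotype has a single library, and for the same reason no library was left out. Alternatives for Dll3 with Hes7 in presomitic cells were not run, as no such class was found. Low UMI counts limit Hes7, Heyl, Dlk2 and Hes3. Setting apart the Hes7-rich cells of the finer clustering was also chosen after seeing the data.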
